A study of Mus musculus with 7 samples.

Results

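Matrix metalloproteinases and their tissue inhibitors were examined in mouse mammary glands kept in organ culture. The 10 genes, of 13971 genes that the arrays' probes name, were chosen by name: 8 metalloproteinases (Mmp2, Mmp3, Mmp9, Mmp10, Mmp11, Mmp12, Mmp13 and Mmp14) and 2 inhibitors (Timp1 and Timp3). The choice was made with earlier results of these data known. The shares of all genes given below therefore do not test for an excess among the members. Each has 1 oligonucleotide probe on the array used, a CodeLink Mouse Whole Genome array read in 1 colour.

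There are 7 groups with 1 array each, so no difference between groups has a replicate check, and no test was run. All glands were the thoracic glands of female mice 4 weeks old, cultured in serum-free medium. An αERKO group lacks estrogen receptor α (ERα, gene Esr1) and a βERKO group lacks estrogen receptor β (ERβ, gene Esr2), both on a C57BL6/129SV background and cultured for 24 days. The wild-type (WT) groups of the C57 strain were cultured for 24 days with the carcinogen DMBA, for 24 days without DMBA, and for 10 days without DMBA. The last 2 groups were BALB/c glands cultured for 24 days, without and with vitamin D5, an analog of vitamin D. The first 10 days were a growth phase with insulin, prolactin, aldosterone and hydrocortisone, and the 14 days after it were a regression phase with insulin alone. Per the study's methods, the knockout glands received DMBA as the WT glands did, at 2 µg/ml for 24 h from Day 3, although the labels name DMBA only for the WT group. For the BALB/c groups, the sources used here state no vitamin D5 dose and do not say whether DMBA was given. Before culture all mice were pretreated with hormones, which the labels give as 9 days of estrogen (1 µg) with progesterone (1 mg) and the study's text on the arrays as 5 days of EGF (25 ng) with the same dose of progesterone. RNA of 5 mice was pooled on each of the αERKO, βERKO and WT with DMBA arrays, and pooling is not stated for the others. The methods also say that αERKO glands, which formed no lesions, could not be harvested, while an αERKO array is deposited. The knockout strain background differs from that of the WT mice, so genotype and strain cannot be told apart.

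Matrix metalloproteinases are zinc enzymes that cut collagens, proteoglycans, laminin and other proteins of the extracellular matrix. Most are secreted as inactive proenzymes and are activated by removal of a propeptide, in part by plasmin and in part by one another. The tissue inhibitors bind the active site of the enzymes and block it. In the mammary gland these genes are known for duct branching and for the breakdown of the basement membrane when the gland regresses after lactation, and stromal cells are a main source of several of them.

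Promoter sequences are shown first because the members fall into 2 kinds by their letters just before the start of transcription, and the members of one kind did not share 1 pattern over the arrays. The RefSeq promoter table of mouse assembly GRCm38.p6 holds 8 of the 10 members with 9 start sites, and does not list Mmp2 and Mmp9. In the 250 bases before a start site, the AP-1 element TGAGTCA, bound by Fos and Jun proteins, was searched on both strands and was found in 4 members. It is present in 4.46% of all 32851 promoters of that table. The TATA element TATAAA, searched on the strand of the gene, was found in 3 of these 4 and in 7.59% of all promoters. The GC box GGGCGG, bound by Sp1 and related proteins, was searched on both strands and was found in the other 4 members and in 32.7% of all promoters. No member had both an AP-1 element and a GC box. The 130 bases before the start are given 5′ to 3′ on the strand of the gene, with the AP-1 element, TATA element or GC box in capitals. In Mmp14 a pair of adjoining GC boxes runs together. The promoters with an AP-1 element lie on the plus strand of chromosome 9, at chr9:7445692-7445821 for Mmp3, chr9:7502212-7502341 for Mmp10, chr9:7272384-7272513 for Mmp13 and chr9:7347244-7347373 for the second of the 2 annotated starts of Mmp12.
Mmp3: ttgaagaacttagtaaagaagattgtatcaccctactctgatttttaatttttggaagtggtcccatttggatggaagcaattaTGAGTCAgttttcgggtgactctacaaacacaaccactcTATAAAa
Mmp10: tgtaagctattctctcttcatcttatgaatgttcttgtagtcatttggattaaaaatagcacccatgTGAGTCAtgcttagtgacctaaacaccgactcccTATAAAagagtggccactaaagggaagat
Mmp13: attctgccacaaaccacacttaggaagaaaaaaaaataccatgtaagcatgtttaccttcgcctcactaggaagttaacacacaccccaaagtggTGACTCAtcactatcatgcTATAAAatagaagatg
Mmp12: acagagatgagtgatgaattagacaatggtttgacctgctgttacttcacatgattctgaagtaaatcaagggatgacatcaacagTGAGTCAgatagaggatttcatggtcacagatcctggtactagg
Those with a GC box include Mmp14 at chr14:54431468-54431597 and Timp1 at chrX:20870036-20870165, both on the plus strand, and Mmp11 at chr10:75932503-75932632 on the minus strand.
Mmp14: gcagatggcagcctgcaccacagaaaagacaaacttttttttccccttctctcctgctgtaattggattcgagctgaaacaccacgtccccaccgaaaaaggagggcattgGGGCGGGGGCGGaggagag
Timp1: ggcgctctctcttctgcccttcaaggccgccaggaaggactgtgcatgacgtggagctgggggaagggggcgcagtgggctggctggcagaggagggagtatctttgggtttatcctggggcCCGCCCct
Mmp11: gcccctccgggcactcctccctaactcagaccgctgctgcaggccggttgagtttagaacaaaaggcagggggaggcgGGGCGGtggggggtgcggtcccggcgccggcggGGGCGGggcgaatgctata
The AP-1 element began 46 bases before the annotated start in Mmp3, 63 bases before it in Mmp10, 35 bases before it in Mmp13 and 44 bases before the second start of Mmp12. A match is a description of letters and not a bound site, and the arrays do not tell the 2 starts of Mmp12 apart. Mmp3, Mmp10, Mmp12 and Mmp13 are also 4 of the 10 metalloproteinase genes in a run on chromosome 9, in which Mmp13 and Mmp12 adjoin, Mmp1b lies between Mmp12 and Mmp3, and Mmp1a between Mmp3 and Mmp10. Timp1 lies within the gene Syn1 and Timp3 within Syn3, by the RefSeq annotation. Of other motifs searched on both strands, the ETS element AGGAAG was found in 6 members and in 29.5% of all promoters, AGGTCA, bound by nuclear receptors, in 2 members and 14.0%, and GCGTG, the core bound by the aryl hydrocarbon receptor, in 2 members and 28.2%.

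**Figure D1:**
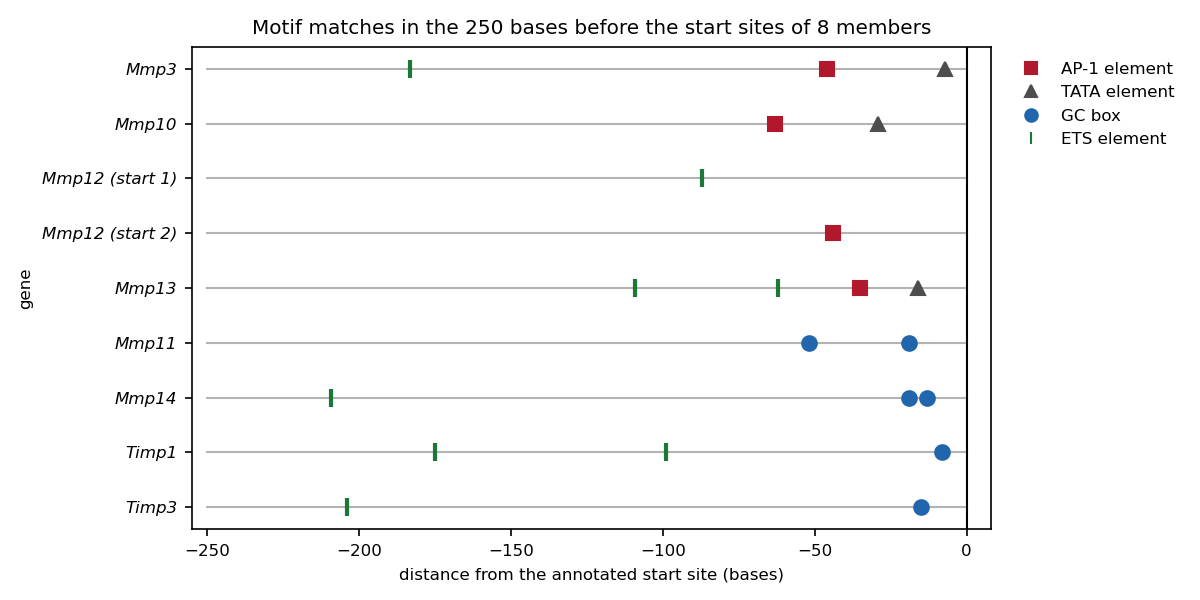
Matches to 4 motifs before the annotated start sites of 8 members. The horizontal axis is the distance of the first base of a match from the start site in bases, and each row is a start site. AP-1 elements stand in Mmp3, Mmp10, Mmp13 and the second start of Mmp12, and GC boxes stand in Mmp11, Mmp14, Timp1 and Timp3.

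A level is the log2 of a probe's intensity over the median of the 34967 gene probes on its array. A level of 0 is thus the array's median. Levels are compared only for 1 probe between arrays. The scanner software called between 68.4% and 74.2% of gene probes good, that is, above local background and regular in shape. Since no arrays are replicated, the only spread at hand is that between different probes of the same transcript: the SD of their log2 ratios lay between 0.19 and 0.68 over the 21 pairs of arrays. It covers disagreement between probes, not between mice, and is called the probe SD here. The Esr2 probe was good on the βERKO array, with a level of 0.87, and near background on the WT with DMBA array, so the former is called the array labelled βERKO. The Esr1 probe was called good on WT with DMBA, at a level of -1.02, and was near background for αERKO as well as on 4 arrays of glands with intact Esr1, so that it does not tell the αERKO array from those. Of 8 measured luminal epithelial markers, between 6 and 8 were good on each array, and of 5 basal markers, 4 or 5. The αERKO array stood apart in its makeup: skeletal muscle markers, summed over 6 genes relative to the array's median, were at 897.5 there and between 2.64 and 31.7 on the other 6 arrays. Its summed luminal and basal markers were the lowest of the 7, at 436.2 and 106.9, and its T cell markers the highest, at 38.5 against 2.02 to 2.74.

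Probes of 7 members were good on all 7 arrays. Mmp12 was good on 6 arrays, Mmp13 on 4 and Mmp9 on 2. In whole-gland RNA, fewer cells of a type and less RNA per cell cannot be told apart.

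Mmp3 (probe GE35749), stromelysin-1, cuts proteoglycans and laminin and activates other proenzymes. Its level was 2.74 for αERKO, 5.13 on the array labelled βERKO, 4.12 on WT with DMBA, 4.40 on WT at 10 days, 1.47 on WT at 24 days without DMBA, 3.12 on BALB/c and 4.47 on BALB/c with vitamin D5. The array labelled βERKO was highest and the 24-day WT array without DMBA was lowest, by 1.27 below the next. BALB/c with vitamin D5, WT at 10 days and WT with DMBA followed each other with steps within 1 probe SD, as did BALB/c and αERKO. The span over all arrays was 3.66, and 3.00 without the array labelled βERKO.

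Mmp10 (GE37396), stromelysin-2, is close to Mmp3 in sequence and lies near it in the genome. Its level was -0.99 on αERKO, -0.77 on the array labelled βERKO, -1.13 on WT with DMBA, 1.29 on WT at 10 days, 0.50 on WT at 24 days without DMBA, 0.53 on BALB/c and 0.69 on BALB/c with vitamin D5. The 7 arrays thus fell into a lower set of 3, which were those of the study's DMBA experiment, and a higher set of 4, with a step of 1.26 between them. Within the lower set no step was over 1 probe SD. Mmp10 was the only member for which all 3 arrays of that experiment lay below all of the others.

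Mmp11 (GE34027), stromelysin-3, is a stromal enzyme that is activated inside the cell by furin. It was at 0.62 on αERKO, 0.51 on the array labelled βERKO, 1.35 on WT with DMBA, -0.68 on WT at 10 days, -1.33 on WT at 24 days without DMBA, 0.35 on BALB/c and -0.19 on BALB/c with vitamin D5. Here the 3 arrays of the DMBA experiment were the highest, as they were for Mmp2, although the array labelled βERKO and BALB/c stood within 1 probe SD of each other for Mmp11, and αERKO and BALB/c with vitamin D5 for Mmp2.

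Mmp12 (GE34026), macrophage elastase, cuts elastin. It was at 4.93 on the array labelled βERKO, 2.89 on WT with DMBA, 2.59 on WT at 10 days, 1.58 on WT at 24 days without DMBA, 1.09 on BALB/c and 1.48 on BALB/c with vitamin D5. On the αERKO array the spot was near background, with a measured value of -2.10. Its span is thus a bound: with the αERKO spot at the lowest good value of its array, it was 6.40 on the log2 scale, and 4.36 without the array labelled βERKO. All 5 measured macrophage markers were called good on the αERKO array, and all 5 were over 2-fold lower there than on WT with DMBA. Their median level was 5.23 on αERKO, 6.83 on WT with DMBA and between 0.23 and 4.48 on the remaining arrays. Their sum was 147.9 on αERKO, and between 122.0 and 226.8 on those remaining arrays, where the Mmp12 spot was good.

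Mmp13 (GE34028), an interstitial collagenase of rodents, was dim throughout. It was at 0.05 on the array labelled βERKO, -0.56 on WT at 10 days, -0.60 on BALB/c with vitamin D5 and -0.66 on WT with DMBA, and the steps among the last 3 were within 1 probe SD. The spot was near background on αERKO (-1.59), WT at 24 days without DMBA (-1.34) and BALB/c (-1.42).

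Mmp2 (GE42533), gelatinase A, cuts denatured collagen and basement membrane collagen and is activated at the cell surface by Mmp14. Its level was 2.87 on αERKO, 3.19 on the array labelled βERKO, 4.00 on WT with DMBA, 1.98 on WT at 10 days, 1.32 on WT at 24 days without DMBA, 1.95 on BALB/c and 2.75 on BALB/c with vitamin D5. WT with DMBA was highest by 0.81 and the WT array without DMBA lowest by 0.63, both more than 1 probe SD. Mmp9 (GE36691), gelatinase B, was good only on WT with DMBA (0.18) and αERKO (-1.20). The spot on the array labelled βERKO was called irregular, at 0.44, and the other 4 were near background, from -2.74 to -1.37.

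Mmp14 (GE34029), membrane-type 1 metalloproteinase, sits in the cell membrane and activates Mmp2. It varied least of the 10, from 4.68 on WT at 24 days without DMBA to 5.50 on BALB/c with vitamin D5, a span of 0.82. The other 5 arrays were at 4.97 on αERKO, 5.10 on BALB/c, 5.31 on WT at 10 days, 5.38 on the array labelled βERKO and 5.45 on WT with DMBA. No step between neighbors in this order was over 1 probe SD.

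Timp1 (GE36204) is a secreted inhibitor of most soluble metalloproteinases, inducible by cytokines and growth factors. Its level was 0.53 on αERKO, 4.44 on the array labelled βERKO, 4.96 on WT with DMBA, 2.89 on WT at 10 days, 2.06 on WT at 24 days without DMBA, 2.49 on BALB/c and 3.70 on BALB/c with vitamin D5. Every step in its order was over 1 probe SD, and αERKO was lowest by 1.53. Timp1 had the widest span, 4.43, of the 7 members good on all arrays.

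Timp3 (GE36203) is bound to the matrix and also inhibits enzymes of the ADAM and ADAMTS families. It was at 4.42 on αERKO, 3.54 on the array labelled βERKO, 4.51 on WT with DMBA, 3.87 on WT at 10 days, 2.87 on WT at 24 days without DMBA, 2.61 on BALB/c and 2.89 on BALB/c with vitamin D5. On the αERKO array it was within 1 probe SD of WT with DMBA, where Timp1 was far apart. The 3 lowest arrays were also within 1 probe SD of each neighbor.

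**Figure D2:**
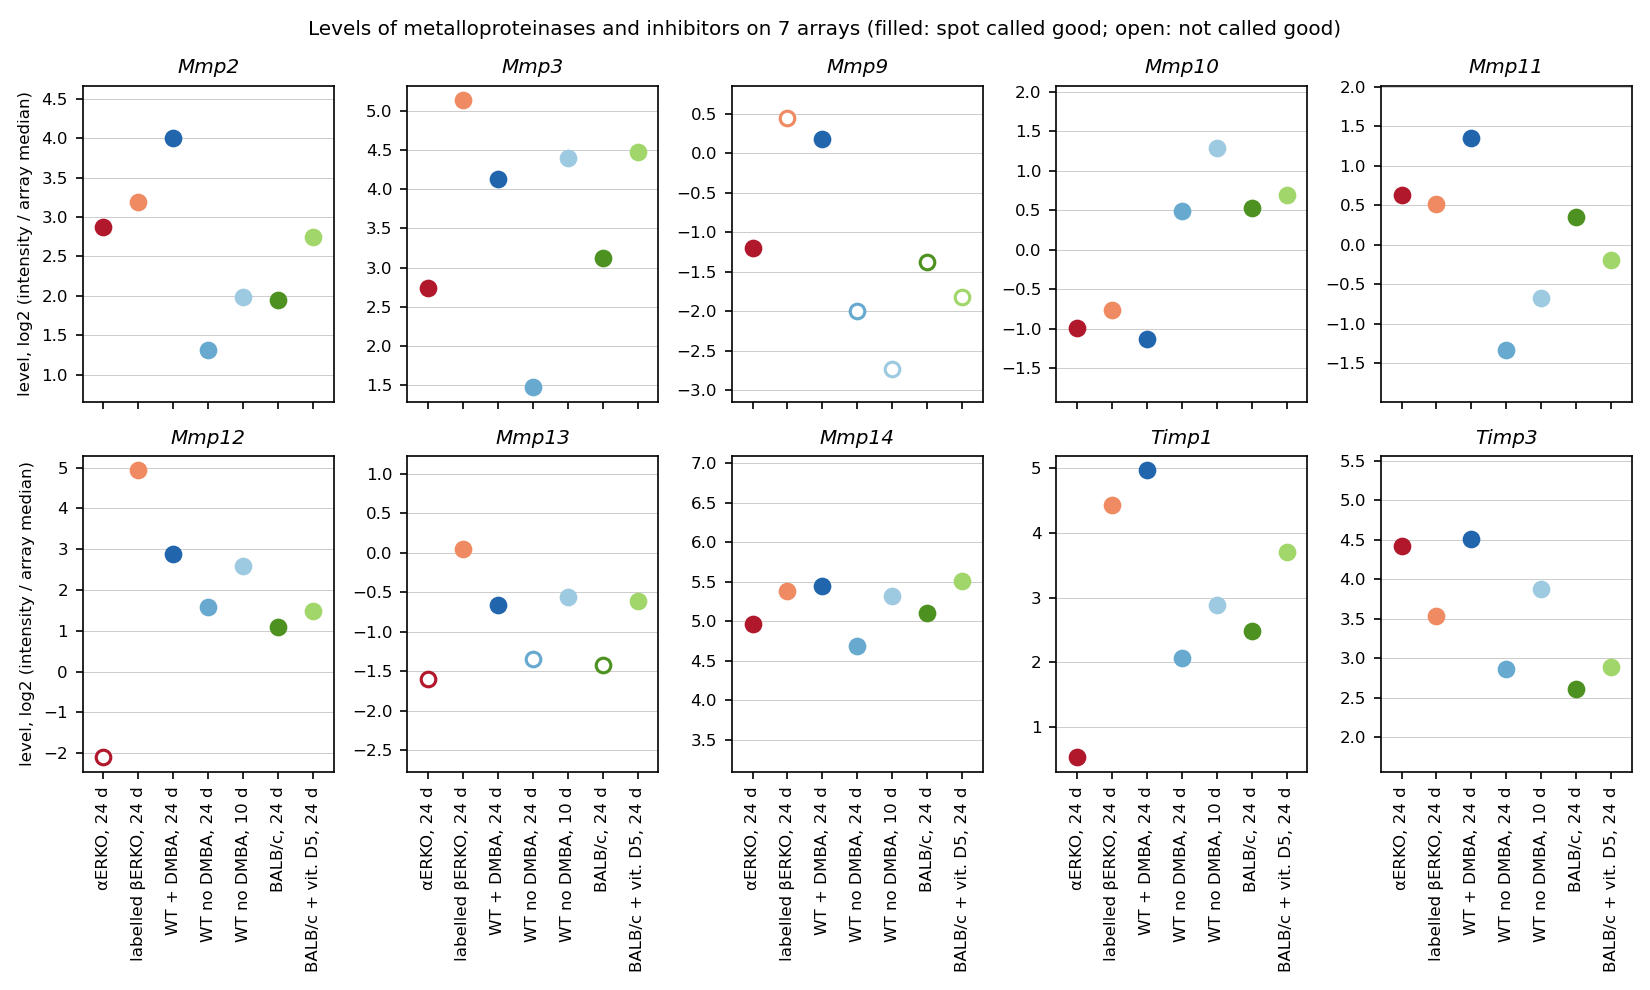
Levels of the 10 members on each of the 7 arrays. The vertical axis is the log2 of intensity over the array's median on a range of its own in each panel, and open circles are spots not called good. Mmp12 and Timp1 are lowest on the αERKO array, Mmp10 is low on the 3 arrays of the DMBA experiment, and Mmp14 spans 0.82.

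The effect of DMBA in C57 glands was asked by setting the WT array with DMBA against the 24-day WT array without it. Members were counted as higher or lower past 2-fold, where the spot was good on at least 1 of the 2 arrays. Of the 10 members, 7 were over 2-fold higher with DMBA (Mmp2, Mmp3, Mmp9, Mmp11, Mmp12, Timp1 and Timp3) and 1, Mmp10, was over 2-fold lower. Of 12150 genes counted the same way, 11.6% were over 2-fold higher, 7.79% lower and 19.4% either. The median log2 ratio was 1.91 over the members and -0.15 over all genes. The inhibitor Timp1 was 7.46-fold higher, Mmp2 6.41-fold, Mmp11 6.39-fold, Mmp3 6.29-fold and Timp3 3.13-fold. Both enzymes and inhibitors were thus among the members at higher levels. Mmp12 was 2.47-fold higher, Mmp9 at least 3.48-fold higher, since its spot without DMBA was near background, and Mmp10 3.10-fold lower. The probe SD of this pair of arrays was 0.30 on the log2 scale. Mmp14 (0.77) and Mmp13 (0.68 as measured, from a spot near background without DMBA) were below 2-fold. Under cyclic loess Mmp14 passed 2-fold (1.05), which makes 8 higher and 1 lower. With normexp background correction, Mmp9 (a log2 ratio of 0.70) and Mmp10 (-0.70) were within 2-fold, and Mmp13 was at 0.18. Mmp11 fell from 2.68 to 1.28, since its spot without DMBA was dim, at 17.9 beside a lowest good intensity of 14.6. Mmp2 (2.31) and Mmp3 (2.33) also moved by more than the probe SD.

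Markers of other cells differed between the same 2 arrays. All 6 fibroblast markers were over 2-fold higher with DMBA, and their summed level was 202.7 against 12.4. Of 5 measured macrophage markers 4 were over 2-fold higher, with a summed level of 571.7 against 226.8, and all 4 counted endothelial markers were, with 41.4 against 7.52. The 8 measured luminal markers summed to 765.8 with DMBA and 1099.9 without. The part of these cells in the levels of Mmp2, Mmp11, Timp1 and the others was not tested.

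Among genes of the same pathway, 6 of 11 counted ADAMTS proteases, which cut proteoglycans and process collagen, were over 2-fold higher with DMBA and none was lower, at a median log2 ratio of 1.10. The 6 include the procollagen protease Adamts2, with 2.80, and Adamts15, with 2.12. They also include Adamts19, at -0.95 with DMBA and near background without it. The lowest good level of the latter array was -1.62, and with that floor Adamts19 is within 2-fold. Of 11 other metalloproteinases counted, 3 were higher, Mmp19 by a log2 ratio of 2.03 among them, and 2 were lower. The median log2 ratio of these 11 was -0.36. Thbs2, a matrix protein that helps clear Mmp2 from the cell surface, differed most of the named list genes, at 4.45 with DMBA and 0.42 without, a log2 ratio of 4.03. The inhibitor Timp4 was 6.58-fold higher. Of 7 AP-1 genes, Fosl1 and Atf3 were over 2-fold lower and none was higher, with Fosl1 at 1.72 with DMBA and 4.18 without. Mmp3 and Mmp10, whose promoters both hold the AP-1 letters shown above, differed in opposite directions in this comparison.

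The question of ERα was addressed by αERKO against WT, both with DMBA. Without ERα, 5 of 10 members had levels lower by over 2-fold (Mmp2, Mmp3, Mmp9, Mmp12 and Timp1) and 0 were higher, where 15.2% of 12189 genes were lower, 10.2% higher and 25.4% either. The median log2 ratio was -1.03 over the members and -0.17 over all genes. Timp1 was 21.6-fold lower, Mmp12 at least 20.5-fold lower, Mmp3 2.61-fold, Mmp9 2.59-fold and Mmp2 2.19-fold. Mmp2 was within 2-fold under cyclic loess (-0.90) and with arrays set to their 75th percentile (-0.998), and Mmp9 under normexp correction (-0.48), where the log2 ratio of Mmp12 was -2.62. Mmp11 (-0.72), Mmp14 (-0.48), Timp3 (-0.09) and Mmp10 (0.15) were within 2-fold, at a probe SD of 0.60. Mmp13, near background for αERKO, was 1.75-fold lower with that spot at the lowest good value. Its log2 ratio was past 2-fold under quantile normalization (-1.02) and only -0.19 under normexp correction. The sign of the Timp3 ratio turned under scaling to the 75th percentile (0.04), quantile normalization (0.00) and cyclic loess (0.13). Timp1 and Timp3, the pair of inhibitors, thus differed by 4.43 and 0.09 in the same comparison.

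Beside these ratios, the αERKO array held more signal of fibroblast markers (401.5 against 202.7 summed) and less of macrophage markers (147.9 against 571.7, with all 5 over 2-fold lower). Skeletal muscle markers stood at 897.5 against 8.70, and luminal markers at 436.2 against 765.8. The part of this makeup in the ratios was not tested. Mmp2, which is lower on the αERKO array, differed in the direction opposite to the summed fibroblast markers. The fibroblast markers over 2-fold higher were decorin (Dcn, 6.86 against 5.44) and lumican (Lum, 4.47 against 3.07).

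Genes of the same pathway were counted in the same way. In the plasminogen system, whose product plasmin activates proenzymes, 5 of 8 genes were over 2-fold lower and 1 higher, with the urokinase receptor Plaur at 1.23 against 3.44 on WT with DMBA. Of 7 genes counted on the list of inducing cytokines and receptors, 5 were lower and 0 higher. Among them were Il1rn, the interleukin-1 receptor antagonist and so not itself an inducer, with a log2 ratio of -2.92, and Tgfb1, with -1.52. Of 7 AP-1 genes 4 were lower and 0 higher, Fos by a log2 ratio of -1.59. Of 9 other metalloproteinases counted, 3 were lower and 0 higher, and the neutrophil collagenase Mmp8, with -2.49, was the most so. The median log2 ratio of these 9 was 0.17. In the ADAMTS family 3 of 11 were lower and 0 higher. Among the genes counted as lower, Tnf (-0.98 on WT with DMBA) and Adamts8 (-0.66) were near background on αERKO. The lowest good level of that array was -1.47, and with that floor both are within 2-fold.

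The array labelled βERKO was set against the same WT array, so both comparisons share that array. Of 10 members, Mmp3 and Mmp12 were over 2-fold higher and 0 were lower, where 6.62% of 12077 genes were higher, 7.29% lower and 13.9% either. Mmp12 was 4.12-fold higher and Mmp3 2.01-fold higher, next to the 2-fold line. Timp3, at 1.96-fold lower, stood just on the other side of it. Under scaling to the 75th percentile, quantile normalization, cyclic loess and normexp correction, Mmp3 was within 2-fold and Timp3 past it, which gives 1 higher and 1 lower. Mmp11 (-0.84), Mmp2 (-0.81) and Timp1 (-0.53) had lower levels than on the WT array by more than the probe SD of 0.37. Mmp13 (0.71) had a higher level by more than that, though not under normexp correction (0.31). Mmp10 (0.37) and Mmp14 (-0.08) were at or within the probe SD, and so was Mmp9 (0.26), whose spot on the array labelled βERKO was irregular. The median was 0.09 over the members and 0.14 over all genes.

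On the array labelled βERKO macrophage markers summed to 165.9 and fibroblast markers to 65.0, both below WT with DMBA, and 4 of 5 macrophage markers were over 2-fold lower. C1qa was at 3.11 against 7.30 on WT with DMBA, and Cd14 at 6.39 against 5.98. The part of these cells in the level of Mmp12 was not tested. Timp4 was 13.1-fold lower and the AP-1 gene Fosl1 5.81-fold higher on this array. Plaur and Serpine2, of the plasminogen system, were 2.25-fold and 2.45-fold higher and the urokinase gene Plau 3.09-fold lower.

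Between the 2 knockout arrays, 5 of 10 members were over 2-fold lower on αERKO (Mmp3, Mmp9, Mmp12, Mmp13 and Timp1) and 0 were higher, beside 20.2% of 12006 genes lower, 11.8% higher and 32.0% either. Mmp12 was at least 84.3-fold lower, Timp1 15.0-fold, Mmp3 5.25-fold and Mmp13 at least 2.85-fold. Mmp9 had a log2 ratio of -1.64, with an irregular spot on the array labelled βERKO. Under normexp correction Mmp9 (-0.61) and Mmp13 (-0.50) were within 2-fold, and the log2 ratio of Mmp12 was -4.38. Timp3 was higher on αERKO by 0.88, and was over 2-fold higher under scaling to the 75th percentile, quantile normalization and cyclic loess. Mmp2 (-0.32), Mmp10 (-0.22), Mmp11 (0.11) and Mmp14 (-0.41) were within the probe SD of 0.56. Timp4 was 14.5-fold higher on αERKO, and Plaur 10.5-fold, Mmp8 8.72-fold and Il1rn 8.39-fold lower. All 6 fibroblast markers and all 6 muscle markers were over 2-fold higher on αERKO, and their part in these ratios was not tested.

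Time in culture was asked by WT glands without DMBA at 24 days, after the regression phase, against 10 days. The glands at 24 days had also been moved to insulin alone, so time and the change of medium cannot be told apart. All 9 members counted had lower levels at 24 days, for which the share of all genes lower by any amount was not counted. Of these members 3 were lower by over 2-fold (Mmp3, Mmp12 and Timp3), where 4.34% of 11887 genes were lower, 5.47% higher and 9.81% either. The median log2 ratio was -0.79 over these members and 0.16 over all genes. Mmp3 stood out, 7.59-fold lower, while Mmp12 and Timp3 were each 2.01-fold lower, next to the 2-fold line, and within it under normexp correction. Timp1 (-0.82), Mmp10 (-0.79), Mmp2 (-0.66), Mmp11 (-0.65) and Mmp14 (-0.63) differed by more than the probe SD of 0.23 and less than 2-fold. Mmp13 had a log2 ratio of -0.78 as measured, from a spot near background at 24 days. Under normexp correction the ratio was -0.23 for Mmp13 and -0.19 for Mmp11. Of the list genes, Il1rn (-2.40), Adamts15 (-2.29) and Serpine2 (-1.72) were over 2-fold lower at 24 days, and the AP-1 genes Atf3 (1.18) and Fosl1 (1.02) were over 2-fold higher. Adipocyte markers summed to 954.0 at 24 days and 291.7 at 10 days, basal markers to 265.8 and 690.8, and fibroblast markers to 12.4 and 17.8, and their part in the members' levels was not tested.

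Vitamin D5 was examined by the pair of BALB/c arrays. Of 9 members counted, Mmp3 was 2.54-fold and Timp1 2.32-fold higher with vitamin D5 and 0 were over 2-fold lower, where 4.41% of 12177 genes were higher, 4.39% lower and 8.80% either. Mmp2 (0.80), Mmp14 (0.40), Mmp12 (0.39) and Timp3 (0.28) had higher levels by more than the probe SD of 0.23. Timp3 was within it at the 75th percentile (0.15) and under quantile normalization (0.14) and cyclic loess (0.13). Mmp13 had a log2 ratio of 0.81 as measured, from a spot near background without vitamin D5, and of 0.25 under normexp correction. Mmp11 was the only one of the 9 at a lower level with vitamin D5, by a log2 ratio of -0.55. The median was 0.40 over the members and 0.16 over all genes. Fos, Il11, Il1rn and Tnf were higher by 1.36, 1.33, 1.22 and 1.15. On the list of inducing cytokines and receptors, 3 of 8 genes were over 2-fold higher, the antagonist Il1rn among them, and 0 were lower. Fibroblast markers summed to 42.4 with vitamin D5 and 23.6 without, with 3 of 6 over 2-fold higher, and luminal markers to 951.7 and 718.9. Their part in the levels of Mmp3 and Timp1 was not tested.

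Strain was compared between BALB/c and WT at 24 days without DMBA, though DMBA is not stated for the BALB/c array. Mmp11 was 3.21-fold and Mmp3 3.14-fold higher on BALB/c, and 0 of 8 members counted were over 2-fold lower, where 6.22% of 12113 genes were higher, 12.2% lower and 18.4% either. With normexp correction Mmp11 was within 2-fold (0.65). The median log2 ratio was 0.42 over the members and -0.31 over all genes. Mmp2 (0.63), Timp1 (0.42) and Mmp14 (0.42) had higher levels by more than the probe SD of 0.32. Mmp12 (-0.49) had a lower level by more than that, and Mmp10 (0.04) and Timp3 (-0.25) did not differ by that much. For Mmp12 this depended on scaling: it was within the probe SD at the 75th percentile (-0.27), under cyclic loess (-0.29) and normexp (-0.30), and past it under quantile normalization (-0.34). Macrophage markers summed to 122.0 on BALB/c and 226.8 on WT, and adipocyte markers to 254.6 and 954.0. Of the 5 macrophage markers, 4 were over 2-fold lower on BALB/c, and the median log2 ratio was -2.99. The remaining marker, Cd14, was at 6.76 on BALB/c and 6.57 on WT. The DMBA, time and strain comparisons share the 24-day WT array without DMBA, on which Mmp2, Mmp3, Mmp11 and Mmp14 each had their lowest level, so their ratios are not independent.

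**Figure D3:**
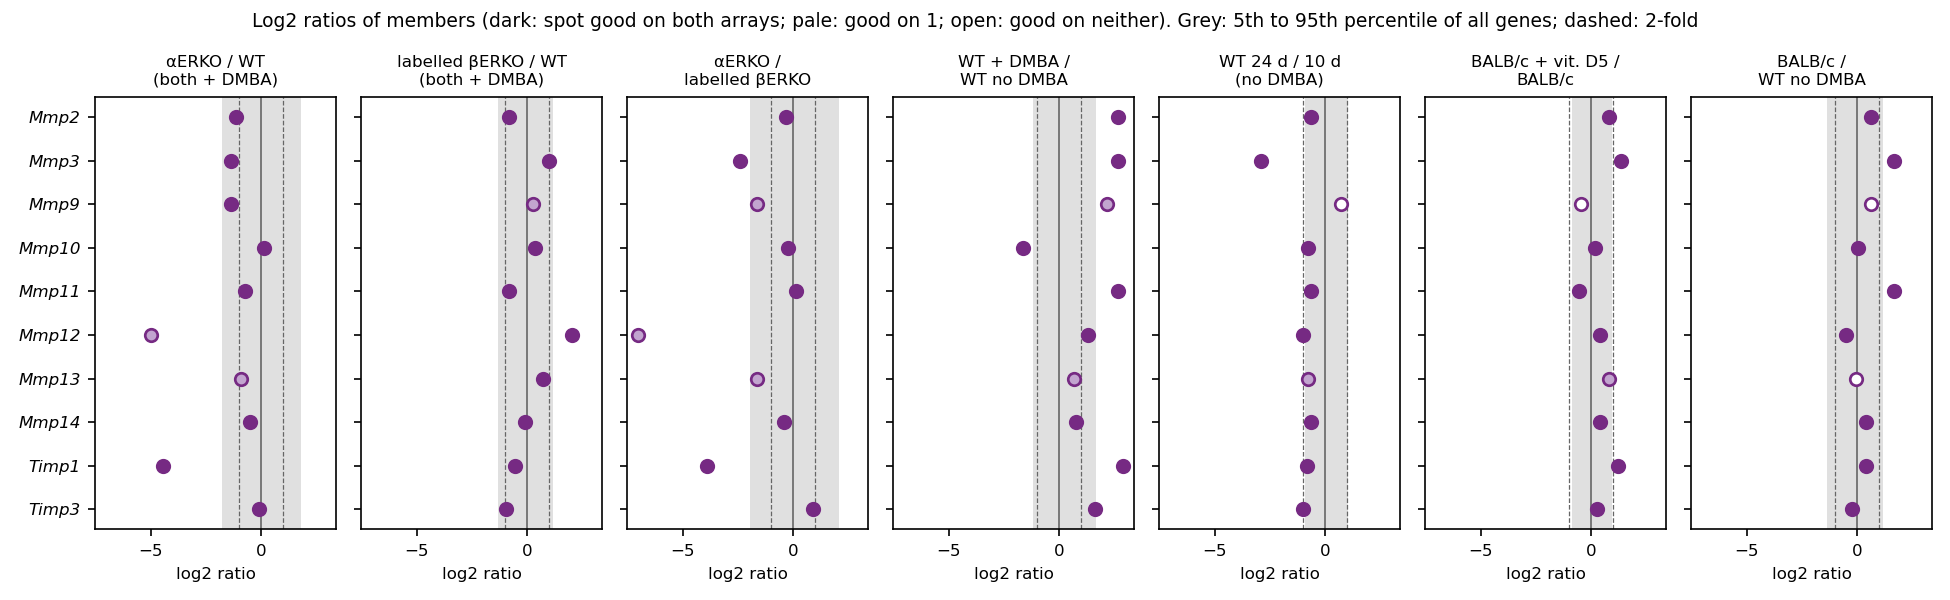
Log2 ratios of the 10 members in the 7 comparisons. The horizontal axis is the log2 ratio of median-scaled intensity, the dashed lines mark 2-fold, and the grey band runs from the 5th to the 95th percentile of all genes counted. Timp1 and Mmp12 lie far below the band for αERKO against WT, and Mmp2, Mmp3, Mmp9, Mmp11 and Timp1 lie above it for DMBA.

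Over the 7 arrays, likeness of pattern was measured as the root mean square difference of log2 levels after each gene was centred on its own mean, with no test, since the arrays share depth, culture and in part strain. Among the 7 members good on all arrays, the closest pair was Mmp2 and Mmp11, at 0.41, followed by Mmp2 and Timp3 at 0.64. Mmp3 and Mmp10 were 1.52 apart, and Mmp10 and Timp1 were farthest, at 1.76. For members spanning over 2 units, the 2 nearest of 9337 other genes good on all arrays were taken. The nearest to Mmp2 was Ctsk, cathepsin K, a collagen-cutting protease, at 0.17, and then Lpar1 at 0.28. For Mmp10 they were Krt23, a keratin, at 0.27, and Lad1, a protein of the epithelial basement membrane, at 0.36. Krt23 was at 1.56, 1.94 and 1.58 on the αERKO, labelled βERKO and WT with DMBA arrays and between 2.78 and 3.24 on the others, the same division as for Mmp10. For Mmp11 they were Tbkbp1 and Tshz3, each at 0.39. Timp1 had no such close neighbor, and Pakap and Pdzk1ip1, each at 0.65, came nearest to it.

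Mmp2, Mmp11 and Timp3 were set beside the summed fibroblast markers, and Mmp12 and Timp1 beside the summed macrophage markers. Mmp2 and Mmp11 were highest on WT with DMBA, while the fibroblast sum was highest on αERKO, at 401.5. The fibroblast sum was lowest, at 12.4, on the 24-day WT array without DMBA, where Mmp2 and Mmp11 were lowest too. Timp3 was lowest on BALB/c, at 2.61, where the fibroblast sum was 23.6. Mmp12 was highest on the array labelled βERKO, where the macrophage sum was 165.9, and near background on αERKO, where it was 147.9. The median level of the 5 markers had the other order, 5.23 on αERKO and 3.46 on the array labelled βERKO. Timp1 had its highest level on the array with the highest macrophage sum, 571.7 on WT with DMBA, and its lowest on αERKO, although BALB/c had a lower macrophage sum, 122.0. These are descriptions over 7 arrays, and the part of either cell type was not tested.

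**Figure D4:**
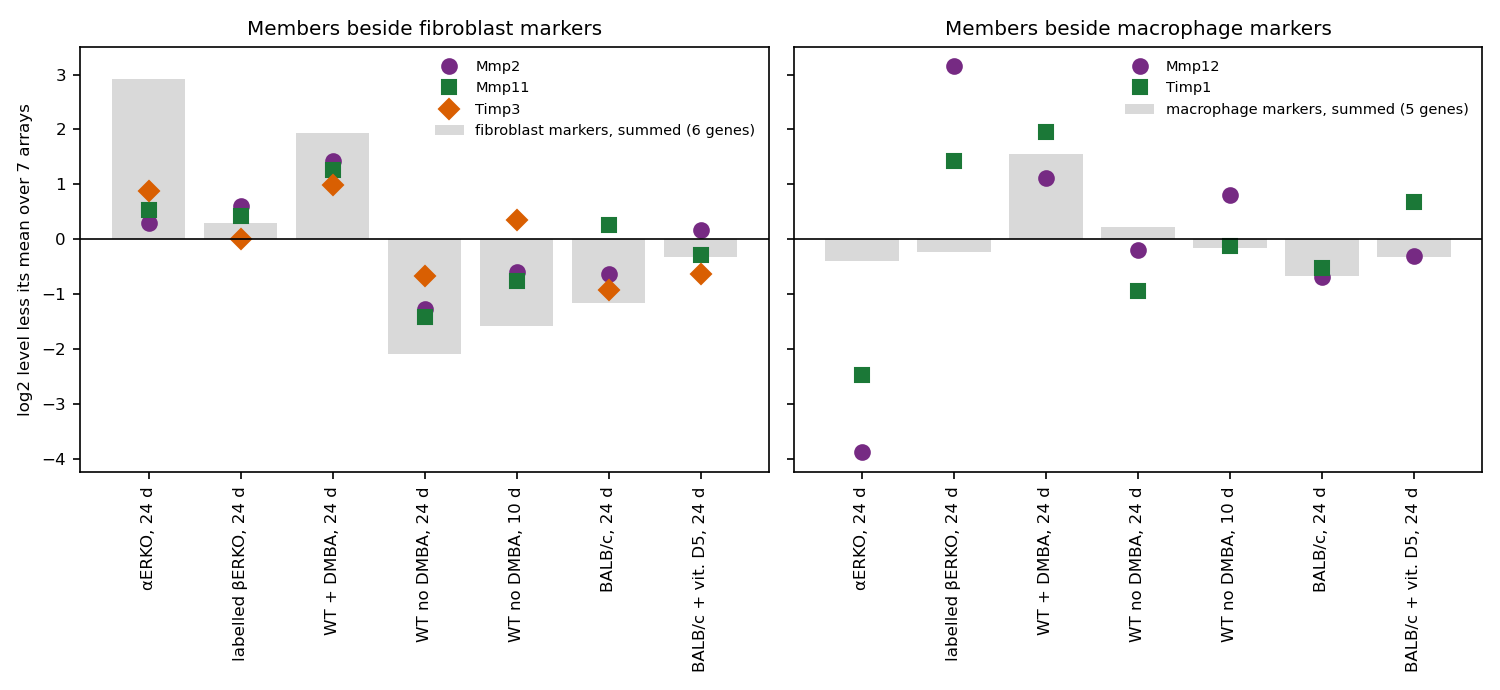
Members beside summed markers of fibroblasts (left) and macrophages (right) on 7 arrays. The vertical axis is the log2 level less its mean over the arrays, points are members and grey bars are the log2 of the summed markers. Mmp2 and Mmp11 lie below their means on the 2 WT arrays without DMBA, as the fibroblast bars do. The bars also lie below on both BALB/c arrays, but Mmp11 lies above its mean on BALB/c and Mmp2 on BALB/c with vitamin D5. Mmp12 is far above the macrophage bar on the array labelled βERKO and far below it on αERKO, where its spot was near background.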

How the data were processed

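Gland RNA was hybridized to 7 CodeLink Mouse Whole Genome arrays, 1 for each group. The intensity deposited by the authors is a spot's mean signal minus its median local background, and each spot carries a quality call of the CodeLink Expression Analysis software. The deposited normalized intensity is the same value divided by 1 constant per array. The deposited series table, whose rows name no probe, was not used, and neither probe sequences nor a genome build were given in the sources used here.

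Each array was scaled to the median of its 34967 gene probes, as the study's methods state, and log2 was taken. RefSeq's table of mouse genes gave names to 14763 of the 15553 probes that carry a RefSeq accession, for 13971 genes. Where several probes name a gene, the one with the highest mean log2 value stands for it. In each of 7 comparisons, genes good on at least 1 of the 2 arrays were counted past 2-fold by their measured values. Where a spot was near background on 1 array, a fold given as at least sets it to its array's lowest good value. Its own value was kept where that was higher. Such a fold is a bound under the first scaling only, since normexp correction gave smaller ratios. No test was possible without replicate arrays, so there are no p-values. The number of arrays limits the precision, and dim spots are imprecise, since the median intensity of gene probes was between 39.1 and 53.0 over a median local background between 80 and 83.

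The members, the other gene lists and the cell type markers were chosen with earlier results of these data known. Genes named beside the members are those of the lists over 2-fold and good on both arrays, up to 6 per comparison by size, the targeted genes Esr1 and Esr2, and the nearest patterns, of which those of Mmp3 are not reported here. The marker genes Dcn, Lum, C1qa and Cd14, Atf3 and Adamts19 for DMBA, and Tnf and Adamts8 for αERKO, were named after their values were seen. Alternatives were the 75th percentile of each array, quantile normalization, cyclic loess, the deposited normalized intensity, normexp background correction (offset 50), spots good on both arrays, a floor at the lowest good value and the mean over all probes of a gene. The counting code was run on simulated data with planted changes well past 2-fold. That checks the code only, and not the calls near 2-fold or near background. Analyses used R 4.3.3 with limma 3.58.1 and Python 3.11.15 with pandas 2.3.3, numpy 2.4.6 and matplotlib 3.10.9.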

Additional observations from a re-analysis of the deposited data

How the results depend on the processing

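No paired analysis was possible because each group has 1 array and the labels give no replicate numbers. Of 56 alternative counts of members over 2-fold, 52 were within 1.5 times the first count. Some alternatives could not differ or could hardly do so, for these counts and for the log2 ratios below. Each member has 1 probe, so the mean over all probes of a gene equals its first value. The deposited normalized intensity differs from the first scaling only by a constant per array. With normexp correction, which draws dim spots toward each other by its offset, the count was 3 for αERKO against the array labelled βERKO, 1 for time in culture and 1 for strain. It was 2 for αERKO against the array labelled βERKO among spots good on both arrays, which leaves 7 members. Of 490 alternative log2 ratios, 458 stayed within the probe SD, 32 moved by more, and 0 of those past 2-fold changed sign. Ratios within 2-fold that changed sign were Timp3 for αERKO against WT and, under quantile normalization (0.01) and cyclic loess (0.06), for strain, Mmp13 for strain at the 75th percentile (0.14), and Mmp2 (0.02) and Mmp14 (0.00) for αERKO against the array labelled βERKO under cyclic loess. The scaling shifted the median of all genes by up to 0.27, for the latter comparison under cyclic loess. Leaving out the array labelled βERKO, which was chosen after seeing the data, lowered the span of Mmp12, as measured with its near-background αERKO spot, to 4.99, and to 4.36 with that spot at the lowest good value. Values below the dimmest good spots, those of Mmp9 and Mmp13 among them, have no order.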
